A study of Homo sapiens with 12 samples.

Results

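In all, 10 genes of the autophagy pathway (10 of the 59424 genes in the deposited tables) were followed in prostate cancer cells with lowered or raised GALNT7. They were chosen by symbol as core factors and cargo receptors of autophagy, with earlier results of these data known. All 10 were present in both tables: ULK1, BECN1, WIPI1, ATG7, MAP1LC3B, GABARAPL1, GABARAPL2, SQSTM1, NBR1 and BNIP3L. All 10 passed the filter on low values in both comparisons. In autophagy, a membrane cup grows around cell contents, closes into an autophagosome and fuses with the lysosome, where the contents are broken down. The ULK1 kinase complex starts the process, the lipid kinase complex around BECN1 marks the site, WIPI proteins read that mark, and ATG7 activates the small ATG8 proteins (the LC3 and GABARAP families) so that they can be attached to the membrane. Receptors such as SQSTM1, NBR1 and BNIP3L bind both cargo and ATG8 proteins, and several ATG8 proteins and receptors are themselves consumed in the lysosome, so that their RNA is one of the inputs that keep the pathway supplied.

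GALNT7 encodes a transferase that puts GalNAc sugars on serine and threonine residues of proteins to which related enzymes have already added such sugars, and the study asked which genes respond to its level. RNA was sequenced from CWR22Rv1 cells, a human prostate carcinoma line, transduced with lentivirus for shControl or for knockdown of GALNT7 (GALNT7 KD), and from DU145 cells, another prostate carcinoma line, carrying a lentiviral control (OE control) or a GALNT7 expression construct (GALNT7 OE). Each of the 4 groups had 3 libraries, which the labels call biological replicates. Knockdown and overexpression were thus each made in 1 cell line only, so that the direction of the GALNT7 change cannot be told apart from the cell line. The stable lines of each condition are populations made by transduction, the promoter of the construct is not given in the sources used here, and nothing says that replicates came from separate transductions, so the p-values measure the spread between these cultures. DU145 cells are known to carry a splice-site mutation in ATG5 and to lack the ATG5 protein that attachment of ATG8 proteins needs, which limits this line as a model of autophagy as a process. RNA levels only are described here.

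Values are normalised read counts, that is, reads on a gene divided by 1 size factor per library, and the reads behind them were 18364512 to 22264533 per CWR22Rv1 library and 21628718 to 24356910 per DU145 library. GALNT7 itself was read first to check the groups, and its mean was 999 ± 122 for shControl against 461 ± 53.7 for GALNT7 KD and 964 ± 75.8 for OE control against 2181 ± 176 for GALNT7 OE (all SD, n = 3). The 2 lines matched the defining markers given here, with the kallikrein gene KLK2 at 904 to 1468 in CWR22Rv1 and 0 to 1.01 in DU145, AXL at 0 to 6.41 and 16638 to 19701, and the leukocyte gene PTPRC at or below 2.10 in every library. Because each line has its own table with its own scaling, apart from these markers no level is compared between the lines. Differences were tested with limma on log2(normalised count + 1), so that a log2 fold change is a difference of group means on that scale, which is too small for genes with few reads, and genes past a Benjamini-Hochberg adjusted p of 0.05 over all genes tested are said to have risen or fallen.

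In CWR22Rv1 cells with GALNT7 knockdown, 4 of the 10 genes rose and 0 fell by limma. These were the ATG8 genes GABARAPL1 and MAP1LC3B and the receptor genes SQSTM1 and NBR1, with ratios of the group means from 1.23 for NBR1 to 3.22 for GABARAPL1. Of all 17906 genes tested in this comparison, 9.06% passed the threshold in either direction, 5.28% were higher and 3.79% were lower. Of the 10 fold changes 9 were above 0, ULK1 being the exception, with a median log2 fold change of 0.26 against -0.0063 over all genes tested. For 5 of the 10 the knockdown libraries all lay above the control libraries, and for the other 5 the groups overlapped, whereas the groups did not overlap for 32.5% of all genes. At an unadjusted limma p under 0.05, 0 were lower and 5 were higher, BNIP3L being the addition. With the count tests of edgeR and DESeq2 on the recovered reads, 4 were higher and 0 lower. The limma count of 4 was 1 without shControl library 1, shControl library 3 or GALNT7 KD library 1, and 2 without shControl library 2, with GABARAPL1 called each time.

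In DU145 cells with GALNT7 overexpression, 7 of the 10 genes fell and 1 rose. NBR1, GABARAPL1, MAP1LC3B, SQSTM1, ATG7, GABARAPL2 and ULK1 were lower, BNIP3L was higher, and BECN1 and WIPI1 did not pass. This has to be read against a comparison in which 43.5% of the 18705 genes tested passed the threshold, 22.9% higher and 20.5% lower. The median log2 fold change of the 10 genes was -0.33 against -0.011 over all genes tested, and the groups did not overlap for 8 of them against 55.3% of all genes. MAP1LC3B, GABARAPL1, SQSTM1 and NBR1 rose with knockdown and fell with overexpression, which makes 4 of 10. Of the 16124 genes tested in both comparisons, 1.58% did so, and of 57 other autophagy genes tested in both, 5 did. The 10 genes were chosen with earlier results of these data known, so these shares are no test of the group. Whether the change of a gene differs between the cell lines was not tested. In bulk RNA, fewer cells that express a gene and less RNA per cell cannot be told apart.

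**Figure D1:**
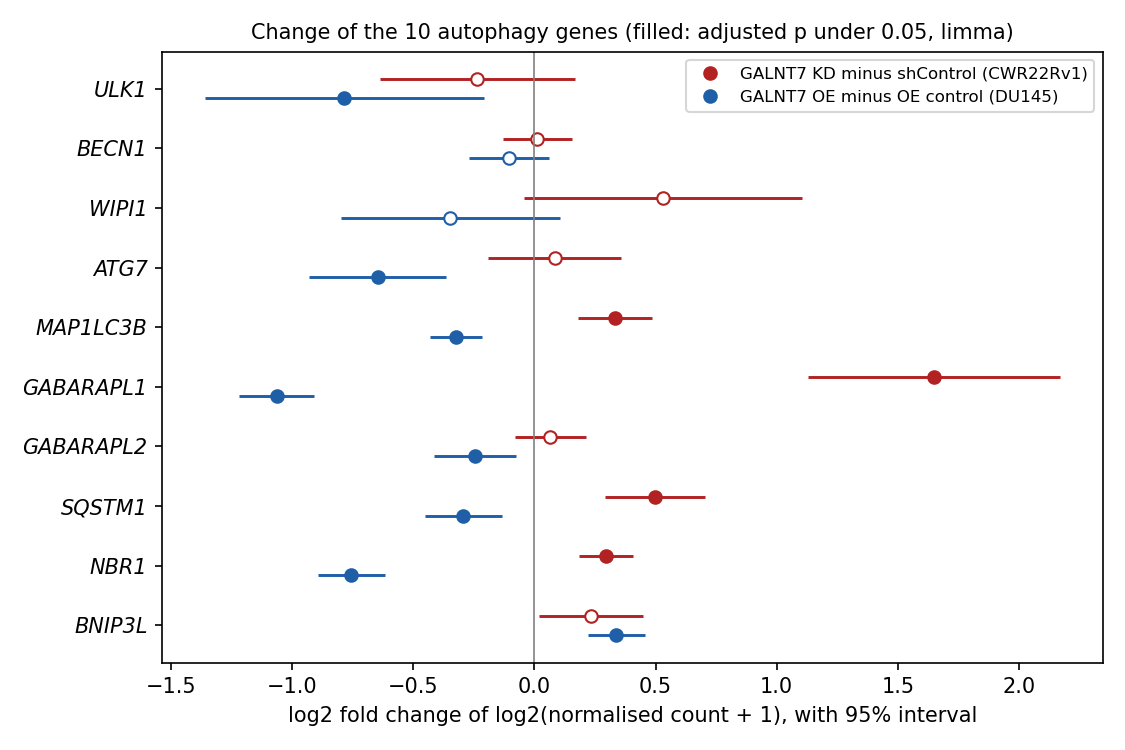
The log2 fold change of each of the 10 genes (x axis, difference of group means of log2(normalised count + 1)) with its 95% interval, for GALNT7 KD minus shControl in CWR22Rv1 cells (red) and GALNT7 OE minus OE control in DU145 cells (blue), 3 libraries per group. Filled points passed an adjusted p of 0.05 by limma. The 4 genes with filled points on both sides of 0 are MAP1LC3B, GABARAPL1, SQSTM1 and NBR1, and GABARAPL1 lies farthest from 0 in both comparisons.

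ULK1 (chr12:131894651-131923167, plus strand, GRCh38) encodes the kinase that starts autophagosome formation. Its normalised counts in CWR22Rv1 cells were 1735, 1503 and 1556 in shControl and 1158, 1200 and 1787 in GALNT7 KD. The third knockdown library was the highest of the 6 and the other two knockdown libraries were the lowest, so the groups overlapped. The log2 fold change was -0.24 (standard error, written SE from here, 0.169, 95% interval -0.64 to 0.17, limma adjusted p = 0.428). Without the third knockdown library it was -0.44 and passed (limma adjusted p = 0.0391), whereas without the first or the second it was -0.12 and -0.15 (limma adjusted p = 0.741 and 0.684). ULK1 lies on chromosome 12, where the median log2 fold change over 922 genes in this comparison was -0.28, and with that median subtracted the value was 0.041.

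In DU145 cells ULK1 stood at 2589, 1598 and 1540 in OE control and at 1145, 1313 and 829 in GALNT7 OE. All overexpression libraries lay below the control libraries, and the first control library stood well above the other two. The log2 fold change was -0.78 (SE 0.242, limma adjusted p = 0.0364). Without that first control library it was -0.54 (adjusted p = 0.0737), and the call was also lost without the second control library (adjusted p = 0.05) and without overexpression library 1 (0.0703) or 3 (0.0997). ULK2, the paralogous kinase, moved the other way in DU145 cells, from 1080 ± 67.6 to 1545 ± 131 (SD, n = 3, log2 fold change 0.51, limma adjusted p = 0.00272), and in CWR22Rv1 cells stood at 886 ± 40.2 and 937 ± 38.3 (SD, n = 3, limma adjusted p = 0.526).

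BECN1 (chr17:42810134-42833350, minus strand) encodes the scaffold of the lipid kinase complex that marks the growing membrane. In CWR22Rv1 cells it stood at 1155, 1182 and 1210 in shControl and at 1216, 1151 and 1207 in GALNT7 KD. Those groups overlapped, and the 95% interval of the log2 fold change ran from -0.13 to 0.15 around 0.011 (limma adjusted p = 0.934). In DU145 cells the counts were 2287, 2154 and 1984 in OE control and 2059, 1884 and 2029 in GALNT7 OE. They overlapped too, with a log2 fold change of -0.10 (95% interval -0.27 to 0.06, limma adjusted p = 0.271). PSME3, which shares 300 exon bases with BECN1 on the other strand, rose there by 0.51 on the log2 scale (limma adjusted p = 0.00105).

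WIPI1 (chr17:68420948-68457513, minus strand) encodes a protein that binds the lipid made by that complex. In CWR22Rv1 cells its counts were 317, 345 and 388 in shControl and 450, 742 and 384 in GALNT7 KD. The second knockdown library was far above the other two, and the third lay inside the control range. The log2 fold change of 0.53 had a 95% interval from -0.04 to 1.10 and did not pass (limma adjusted p = 0.22). Without the second knockdown library it was 0.25 (limma adjusted p = 0.318). In DU145 cells WIPI1 stood at 214, 247 and 284 in OE control and at 159, 184 and 249 in GALNT7 OE. The groups overlapped through the third overexpression library, and the log2 fold change of -0.35 did not pass (limma adjusted p = 0.187). Without that library it was -0.53 and passed (limma adjusted p = 0.0482), and without the first overexpression library it was -0.21 (limma adjusted p = 0.423). ARSG, which shares 828 exon bases (24.3% of those of WIPI1) on the other strand, rose in DU145 cells by 0.91 on the log2 scale (limma adjusted p = 0.00877).

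ATG7 (chr3:11272309-11557665, plus strand) encodes the enzyme that activates ATG8 and ATG12 proteins. In CWR22Rv1 cells it stood at 525, 616 and 619 in shControl and at 586, 706 and 575 in GALNT7 KD, a log2 fold change of 0.083 (95% interval -0.19 to 0.36, limma adjusted p = 0.702) with overlapping groups. In DU145 cells it fell, from 794, 887 and 773 in OE control to 593, 446 and 535 in GALNT7 OE, all below the control libraries. The ratio of the means was 0.642 and the log2 fold change was -0.65 (SE 0.119, limma adjusted p = 0.00468). It passed with each library left out. ATG7 shares 1596 exon bases, 18.1% of its own, with VGLL4 on the other strand, which fell by 0.84 on the log2 scale in DU145 cells (limma adjusted p = 0.000154). The library kit keeps the strand, but whether the counting used it is not given in the sources used here, and the part of such overlaps in the counts was not tested.

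**Figure D2:**
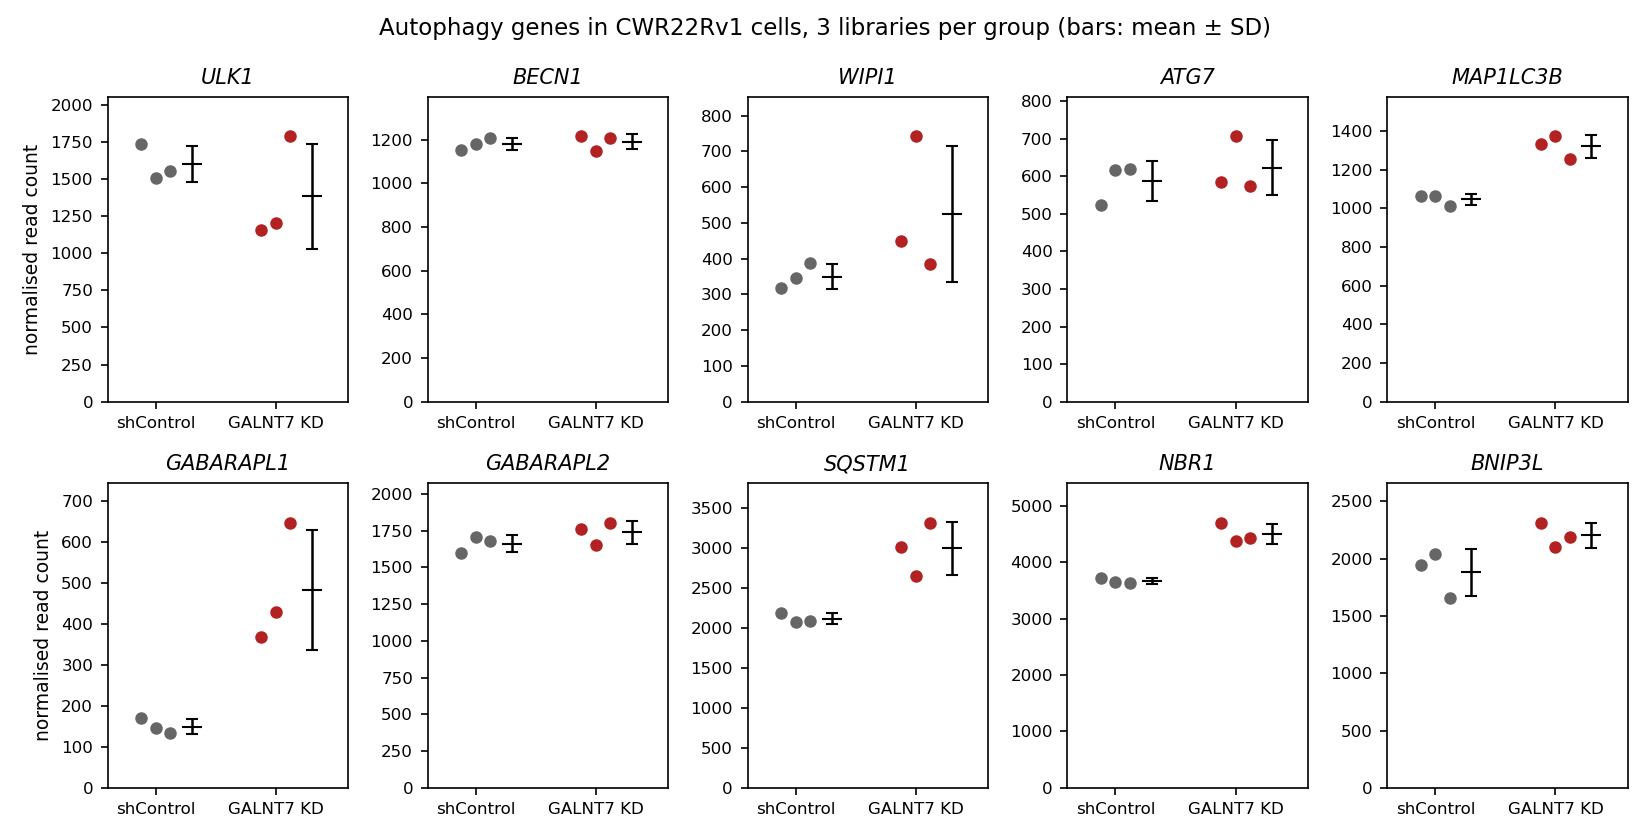
Normalised read count (y axis, from 0) of each of the 10 genes in CWR22Rv1 cells, 3 shControl libraries (grey points) and 3 GALNT7 KD libraries (red points), with mean ± SD (black). The knockdown points lie above all control points for MAP1LC3B, GABARAPL1, SQSTM1, NBR1 and BNIP3L.

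The proteins of the ATG8 genes are short ubiquitin-like tags on the autophagosome membrane. Reads can be assigned to a single gene with certainty only where the sequences differ. The first 90 coding bases of MAP1LC3B are shown beside those of its copy MAP1LC3B2 on chromosome 12, from the transcripts of GENCODE release 29 on GRCh38, with capitals at the base that differs from MAP1LC3B. The same stretch of GABARAPL1 is shown beside GABARAP and GABARAPL2, with capitals at bases that differ from GABARAPL1.
MAP1LC3B: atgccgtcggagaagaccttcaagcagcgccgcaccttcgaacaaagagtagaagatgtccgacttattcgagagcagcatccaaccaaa
MAP1LC3B2: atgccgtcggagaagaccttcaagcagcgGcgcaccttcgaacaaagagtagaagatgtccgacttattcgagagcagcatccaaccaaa
GABARAPL1: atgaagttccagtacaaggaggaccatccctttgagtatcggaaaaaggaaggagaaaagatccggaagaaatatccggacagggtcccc
GABARAP: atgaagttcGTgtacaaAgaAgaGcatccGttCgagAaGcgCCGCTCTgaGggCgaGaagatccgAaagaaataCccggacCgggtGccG
GABARAPL2: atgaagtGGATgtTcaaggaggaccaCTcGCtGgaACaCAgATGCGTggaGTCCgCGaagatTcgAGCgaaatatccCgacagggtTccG
Over the whole coding sequence, MAP1LC3B and MAP1LC3B2 differed at 2 of 378 bases (99.5% identity), so reads within it can hardly be told apart and the split between the pair is uncertain. GABARAPL1 and GABARAP shared 76.8% of 354 bases, and GABARAPL1 and GABARAPL2 62.1%, so that their counts rest on many differing bases. MAP1LC3B2 was listed at 55.9 to 138 normalised counts in the CWR22Rv1 libraries and at 66.5 to 157 in the DU145 libraries, well below MAP1LC3B in each library.

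GABARAPL1 (chr12:10212458-10223130, plus strand) encodes a GABARAP-family tag. It had the largest change of the 10 genes in both comparisons. In CWR22Rv1 cells its normalised counts were 170, 145 and 134 in shControl and 369, 430 and 647 in GALNT7 KD. Every knockdown library was above every control library, and the third was above the other two. The means were 150 ± 18.5 and 482 ± 146 (SD, n = 3), a ratio of 3.22 and a log2 fold change of 1.65 (SE 0.218, 95% interval 1.13 to 2.17, limma adjusted p = 0.00824). The median log2 fold change of its chromosome 12 was -0.28, and with that median subtracted the value for GABARAPL1 was 1.93. Whether the chromosome median applies at this locus was not tested. With each library left out in turn it stayed between 1.42 and 1.82 and passed each time.

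In DU145 cells GABARAPL1 stood at 1367, 1441 and 1448 in OE control and at 646, 679 and 711 in GALNT7 OE. The groups were far apart with little spread inside each. The ratio of the means was 0.479 (1418 ± 44.9 and 679 ± 32.4, SD, n = 3), and the log2 fold change was -1.06 (SE 0.0654, limma adjusted p = 3.78e-05). Leaving out each library gave -1.10 to -1.03.

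The 120 bases before the RefSeq start of GABARAPL1 (chr12:10212757-10212876, plus strand, GRCh38.p14) are printed because this gene changed most. They lie inside the GENCODE span of the gene, which begins at 10212458. They are 74.2% G or C, a higher share than in the same stretch of 81.7% of 35116 promoters.
GABARAPL1 promoter: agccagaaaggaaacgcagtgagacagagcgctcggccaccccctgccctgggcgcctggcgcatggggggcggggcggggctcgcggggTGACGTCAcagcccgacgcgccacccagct
Capitals mark TGACGTCA, the full cyclic AMP response element, which is its own reverse complement and begins 30 bases before the start. It was looked for after the stretch had been read. It was found in 1.85% of all promoters, from 250 bases before to 50 after the start, and of the 9 members in the promoter table in GABARAPL1 alone. A match is a description of letters, not of binding.

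MAP1LC3B (chr16:87383995-87404779, plus strand) encodes the LC3 protein most used as a marker of autophagosomes. In CWR22Rv1 cells it stood at 1064, 1063 and 1014 in shControl and at 1332, 1372 and 1253 in GALNT7 KD. Both groups were tight and did not overlap. The ratio of the means was 1.26 and the log2 fold change was 0.33 (SE 0.0649, 95% interval 0.18 to 0.49, limma adjusted p = 0.0265). With 2 libraries in a group the size stayed at 0.30 to 0.37, but the adjusted p was 0.0858, 0.069 and 0.0948 without shControl libraries 1, 2 and 3 and 0.0994 and 0.0697 without GALNT7 KD libraries 1 and 2. With a replicate block in the fit the adjusted p was 0.053.

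In DU145 cells MAP1LC3B stood at 3038, 2937 and 2973 in OE control and at 2324, 2387 and 2445 in GALNT7 OE. Here too the groups were tight and separate. The ratio was 0.80 (2983 ± 51.2 and 2385 ± 60.4, SD, n = 3) and the log2 fold change -0.32 (SE 0.0451, limma adjusted p = 0.00137), and it passed without each library. FBXO31, with 150 exon bases in common on the other strand, was at -0.29 and did not pass (limma adjusted p = 0.378). MAP1LC3B2 was at 113 ± 38.9 and 72.0 ± 6.49 (SD, n = 3, limma adjusted p = 0.094). These counts rest on the same uncertain split, so they cannot tell how many reads of the copy were counted for MAP1LC3B.

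The following 3 motifs were searched on both strands in the RefSeq promoter windows (250 bases before to 50 after each start) of the 9 members in the table: CACGTG, the E-box core bound by TFEB and its relatives, GTAAACA, a forkhead motif, and TGACNNNGC, the core of the antioxidant response element. The first 2 were in 0 of the 12 windows of these genes and in 7.26% and 3.42% of all 35116 promoters. The core of the antioxidant response element was in 1 window, that of MAP1LC3B, and in 13.3% of all promoters. The 106 bases around it (chr16:87392230-87392335, plus strand, GRCh38.p14) are printed with the match in capitals, 46 bases before the RefSeq start. They lie inside the GENCODE span of the gene, which begins at 87383995.
MAP1LC3B promoter: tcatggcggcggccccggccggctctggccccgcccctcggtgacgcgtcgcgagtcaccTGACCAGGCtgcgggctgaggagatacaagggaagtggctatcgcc
No match says only that these letters are not in these windows.

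GABARAPL2 (chr16:75566351-75577881, plus strand) encodes the GABARAP-family tag also known for its part in Golgi traffic. In CWR22Rv1 cells it stood at 1597, 1704 and 1680 in shControl and at 1760, 1649 and 1804 in GALNT7 KD, with overlapping groups and a log2 fold change of 0.065 (95% interval -0.08 to 0.21, limma adjusted p = 0.554). In DU145 cells the counts were 1513, 1616 and 1532 in OE control and 1332, 1400 and 1208 in GALNT7 OE. The overexpression libraries lay below the control libraries, with a log2 fold change of -0.24 (SE 0.0715, limma adjusted p = 0.0303). The call passed in 1 of the 6 leave-out fits, and the adjusted p was 0.0596, 0.0958 and 0.0681 without OE control libraries 1, 2 and 3 and 0.0538 and 0.071 without GALNT7 OE libraries 1 and 3. With the median of chromosome 16 subtracted (-0.11 over 853 genes), an alternative chosen after seeing the data, the value was -0.14 (limma adjusted p = 0.166). For MAP1LC3B, on the same chromosome, the same subtraction gave -0.21 in place of -0.32, and that call still passed (limma adjusted p = 0.00794).

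The other ATG8 genes did not all move with these. GABARAP rose in CWR22Rv1 cells from 3112 ± 74.9 to 3762 ± 29.04 (log2 fold change 0.27, limma adjusted p = 0.014) and fell in DU145 cells from 2946 ± 59.8 to 2131 ± 53.4 (log2 fold change -0.47, limma adjusted p = 0.000283, all SD, n = 3). The rise passed in 2 of the 6 fits that leave out a library, with adjusted p up to 0.0653. MAP1LC3A was at 158 ± 3.78 and 119 ± 17.2 in CWR22Rv1 cells, lower in every knockdown library but not past the threshold (log2 fold change -0.41, limma adjusted p = 0.128), and fell in DU145 cells from 337 ± 37.3 to 105 ± 25.9 (log2 fold change -1.69, limma adjusted p = 0.000476). MAP1LC3C was below the filter in CWR22Rv1 cells and at 1.91 to 10.5 in DU145 cells.

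**Figure D3:**
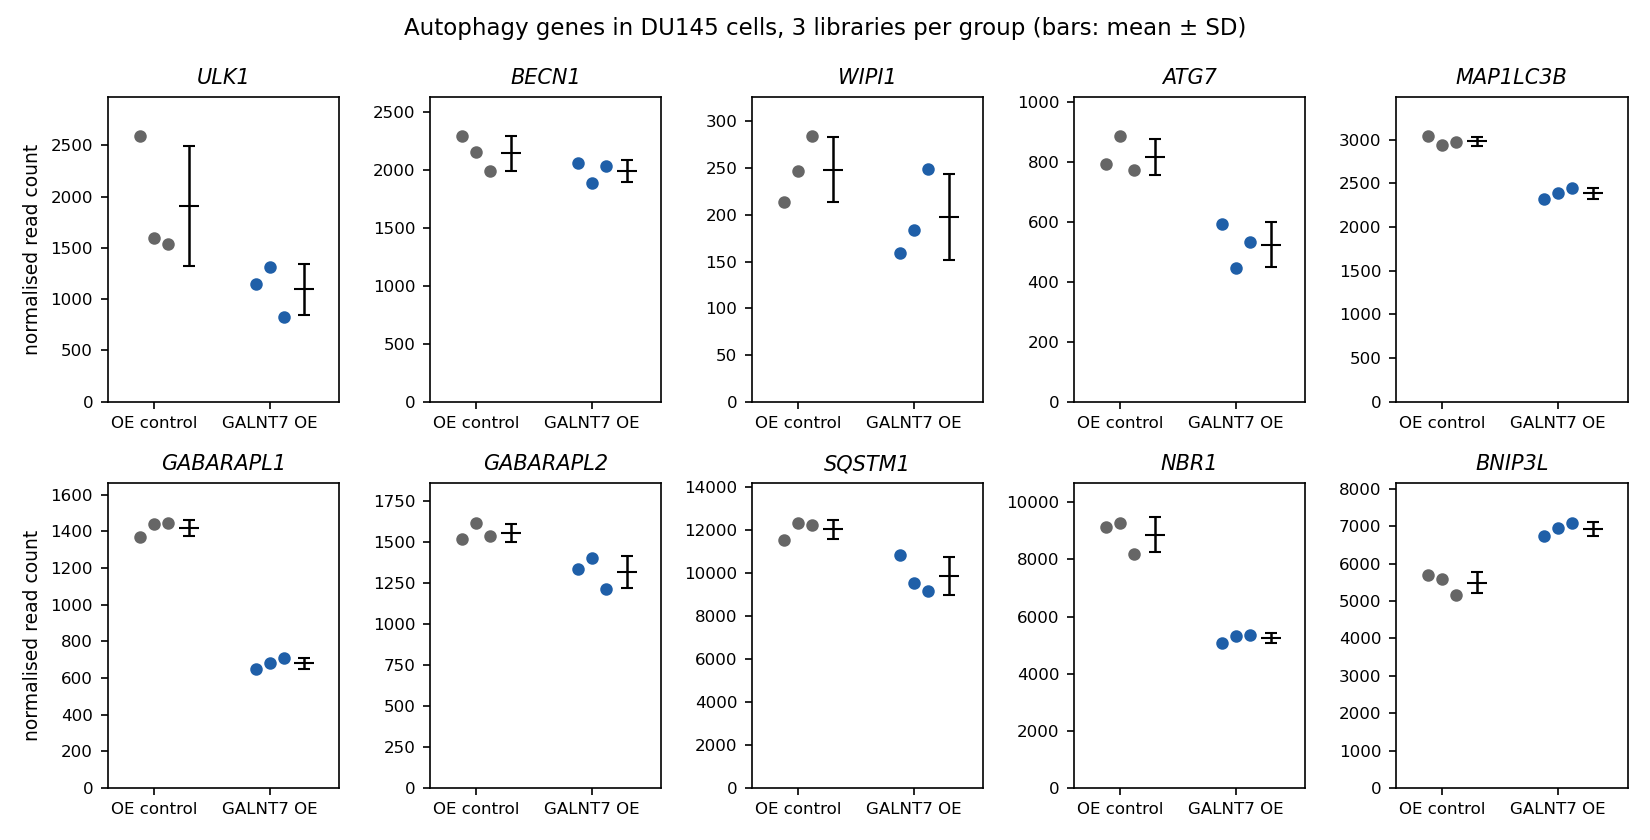
Normalised read count (y axis, from 0) of each of the 10 genes in DU145 cells, 3 OE control libraries (grey points) and 3 GALNT7 OE libraries (blue points), with mean ± SD (black). The overexpression points lie below all control points for 7 genes, above them for BNIP3L, and overlap with them for BECN1 and WIPI1.

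SQSTM1 (chr5:179806398-179838078, plus strand) encodes the receptor that links ubiquitinated cargo to ATG8 proteins. In CWR22Rv1 cells its counts were 2194, 2073 and 2083 in shControl and 3018, 2657 and 3321 in GALNT7 KD. The control libraries were close together, and the knockdown libraries were all higher with a wider spread. The ratio of the means was 1.42 (2117 ± 67.3 and 2999 ± 332, SD, n = 3) and the log2 fold change was 0.50 (SE 0.0863, 95% interval 0.29 to 0.70, limma adjusted p = 0.0189). Without shControl libraries 1, 2 and 3 the adjusted p was 0.0593, 0.0611 and 0.0675, and without GALNT7 KD library 1 it was 0.0734, with the fold change between 0.42 and 0.58 in all leave-out fits.

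In DU145 cells SQSTM1 had the highest level per kb of the 10 genes, and its counts were 11526, 12334 and 12231 in OE control and 10849, 9538 and 9141 in GALNT7 OE. The first overexpression library came nearest to the control range without entering it. The log2 fold change was -0.29 (SE 0.0675, limma adjusted p = 0.0119), a ratio of 0.818, and it passed with each library left out. MGAT4B and MRNIP, which overlap SQSTM1 on the other strand by 105 and 1582 exon bases, fell by 0.80 and 0.67 on the log2 scale in DU145 cells (limma adjusted p = 9.75e-05 and 0.00587). In CWR22Rv1 cells their log2 fold changes were 0.19 and 0.15 and did not pass (limma adjusted p = 0.274 and 0.423).

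NBR1 (chr17:43170481-43211689, plus strand) encodes a receptor with the same kinds of cargo and ATG8 contacts, known also for taking peroxisomes to the lysosome. In CWR22Rv1 cells it stood at 3727, 3640 and 3628 in shControl and at 4702, 4374 and 4422 in GALNT7 KD. The spread inside each group was small beside the step between them. The ratio was 1.23 (3665 ± 53.8 and 4499 ± 177, SD, n = 3) and the log2 fold change 0.30 (SE 0.0468, 95% interval 0.18 to 0.41, limma adjusted p = 0.0139). Without shControl library 1 or 3 or GALNT7 KD library 1 the adjusted p was 0.054, 0.0586 and 0.0614.

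In DU145 cells NBR1 fell, from 9140, 9291 and 8173 in OE control to 5060, 5315 and 5369 in GALNT7 OE. No overexpression library came near the control range. The ratio of the means was 0.592 and the log2 fold change was -0.75 (SE 0.0581, 95% interval -0.89 to -0.62, limma adjusted p = 9.79e-05). It stayed between -0.81 and -0.72 with each library left out. AC060780.1, a noncoding gene that shares 463 exon bases with NBR1 on the other strand, fell there by 0.59 on the log2 scale (limma adjusted p = 0.0111).

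BNIP3L (chr8:26382898-26505636, plus strand) encodes a receptor in the outer membrane of mitochondria that binds ATG8 proteins when mitochondria are cleared. Among the 10 genes it was the only one that rose in DU145 cells, from 5706, 5584 and 5168 in OE control to 6731, 6962 and 7099 in GALNT7 OE. All overexpression libraries were above the control libraries (ratio 1.26, log2 fold change 0.34, SE 0.0495, limma adjusted p = 0.00168). In CWR22Rv1 cells it stood at 1940, 2044 and 1653 in shControl and at 2314, 2104 and 2190 in GALNT7 KD, again with each treated library above each control library, but the log2 fold change of 0.23 did not pass (95% interval 0.019 to 0.45, limma adjusted p = 0.16). Its relative BNIP3 rose in both lines, from 785 ± 64.4 to 1284 ± 78.0 in CWR22Rv1 cells (log2 fold change 0.71, limma adjusted p = 0.00651) and from 2088 ± 32.8 to 2574 ± 203 in DU145 cells (log2 fold change 0.30, limma adjusted p = 0.00973, all SD, n = 3). Both BNIP3 calls passed in all 6 leave-out fits of their comparison. PNMA2, which shares 330 exon bases with BNIP3L on the other strand and is abundant in DU145 cells (mean 5961), fell there by 0.26 on the log2 scale (limma adjusted p = 0.0136).

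The other 58 autophagy genes of the list were counted by role. In CWR22Rv1 cells 57 were tested, 7 rose, 0 fell and 50 did not pass by limma (12.3% passed, near the 9.06% of all genes), with a median log2 fold change of 0.054 (38 above and 19 below 0). At an unadjusted limma p under 0.05, 11 were higher and 6 lower, edgeR called 6 higher and 0 lower, and DESeq2 called 9 higher and 3 lower. In DU145 cells all 58 were tested, 10 rose, 20 fell and 28 did not pass (51.7% passed, near the 43.5% of all genes), with a median of -0.058. The 7 that rose with knockdown were 2 of 5 transcription factor genes (FOXO1 and FOXO3), 2 of 11 receptor genes (CCPG1 and BNIP3), 1 of 4 genes of the ULK1 complex (RB1CC1), 1 of 3 tested ATG8 genes (GABARAP) and 1 of 7 fusion genes (VAMP8). Without shControl library 1, shControl library 3 or GALNT7 KD library 1, 3 passed. No call was made by limma among 6 genes of the class III lipid kinase complex, 7 WIPI, ATG2 and ATG9 genes, 9 genes of ATG8 conjugation and 5 kinase genes of mTORC1 and AMPK. In DU145 cells 4 of 7 WIPI, ATG2 and ATG9 genes fell and 1 rose, 5 of 11 receptor genes fell and 2 rose, 3 of 5 transcription factor genes fell, and of 9 conjugation genes 3 rose and 1 fell.

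FOXO1, a forkhead factor known to drive several autophagy genes, had the largest rise of these with knockdown, from 240 ± 16.9 to 1565 ± 335 (SD, n = 3, log2 fold change 2.68, limma adjusted p = 0.000653). In DU145 cells its OE control libraries stood at 374, 2138 and 2544 and its GALNT7 OE libraries at 163, 183 and 165. The first control library was far below the other two, which widens the error of the log2 fold change of -2.89 (SE 0.677, limma adjusted p = 0.0127). Leaving out each library gave -3.77 to -2.39, and the call passed each time. The same first OE control library was the highest for ULK1.

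CCPG1, a receptor for clearance of the endoplasmic reticulum, rose in CWR22Rv1 cells from 239 ± 47.2 to 563 ± 99.2 (log2 fold change 1.24, limma adjusted p = 0.0125) and fell in DU145 cells from 2462 ± 205 to 1561 ± 153 (log2 fold change -0.66, limma adjusted p = 0.00144, all SD, n = 3). FOXO3, RB1CC1 (the scaffold of the ULK1 complex) and VAMP8 (a fusion SNARE) rose by 0.38, 0.39 and 0.24 on the log2 scale with knockdown (limma adjusted p = 0.0162, 0.0222 and 0.0485). Of the 6 fits that leave out a library, 3, 3 and 0 kept these calls. FOXO3 and VAMP8 fell with overexpression, by 0.40 and 0.30 on the log2 scale, and together with GABARAP, CCPG1 and FOXO1 they are the 5 of 57 genes with that opposite pattern. The VAMP8 fall passed in 2 of the 6 leave-out fits, with adjusted p up to 0.0733, and that of FOXO3 in all 6.

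With overexpression, ATG9B (a lipid scramblase) had the lowest log2 fold change of the other autophagy genes, at -4.13 (limma adjusted p = 0.00421), from low counts of 81.9 ± 39.5 to 5.35 ± 6.60 (SD, n = 3). Among those with a mean of at least 50, the lowest after FOXO1 were MAP1LC3A, ATG2A (a lipid transfer protein, log2 fold change -1.19, limma adjusted p = 3.99e-05), RETREG1 (a receptor for the endoplasmic reticulum, -0.81, limma adjusted p = 0.00703) and WDR45 (a WIPI relative, -0.70, limma adjusted p = 0.0126). WIPI2 fell by 0.34 on the log2 scale (limma adjusted p = 0.0324, passing in 3 of 6 leave-out fits, with adjusted p up to 0.0994), whereas WDR45B was at -0.019 (limma adjusted p = 0.874). The highest with such a mean were ATG2B (0.67, limma adjusted p = 0.00681), ULK2, ATG10 (0.48, limma adjusted p = 0.0438), TAX1BP1 (0.47, limma adjusted p = 0.000811) and ATG5 (0.46, limma adjusted p = 0.00621). Paralogues thus stood on opposite sides of 0 for ULK1 and ULK2 and for ATG2A and ATG2B. ATG10 and ATG5, which both serve the ATG12 conjugate, were higher where ATG7 was lower. The ATG10 call held in 2 of 6 leave-out fits and that of ATG5 in all 6.

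**Figure D4:**
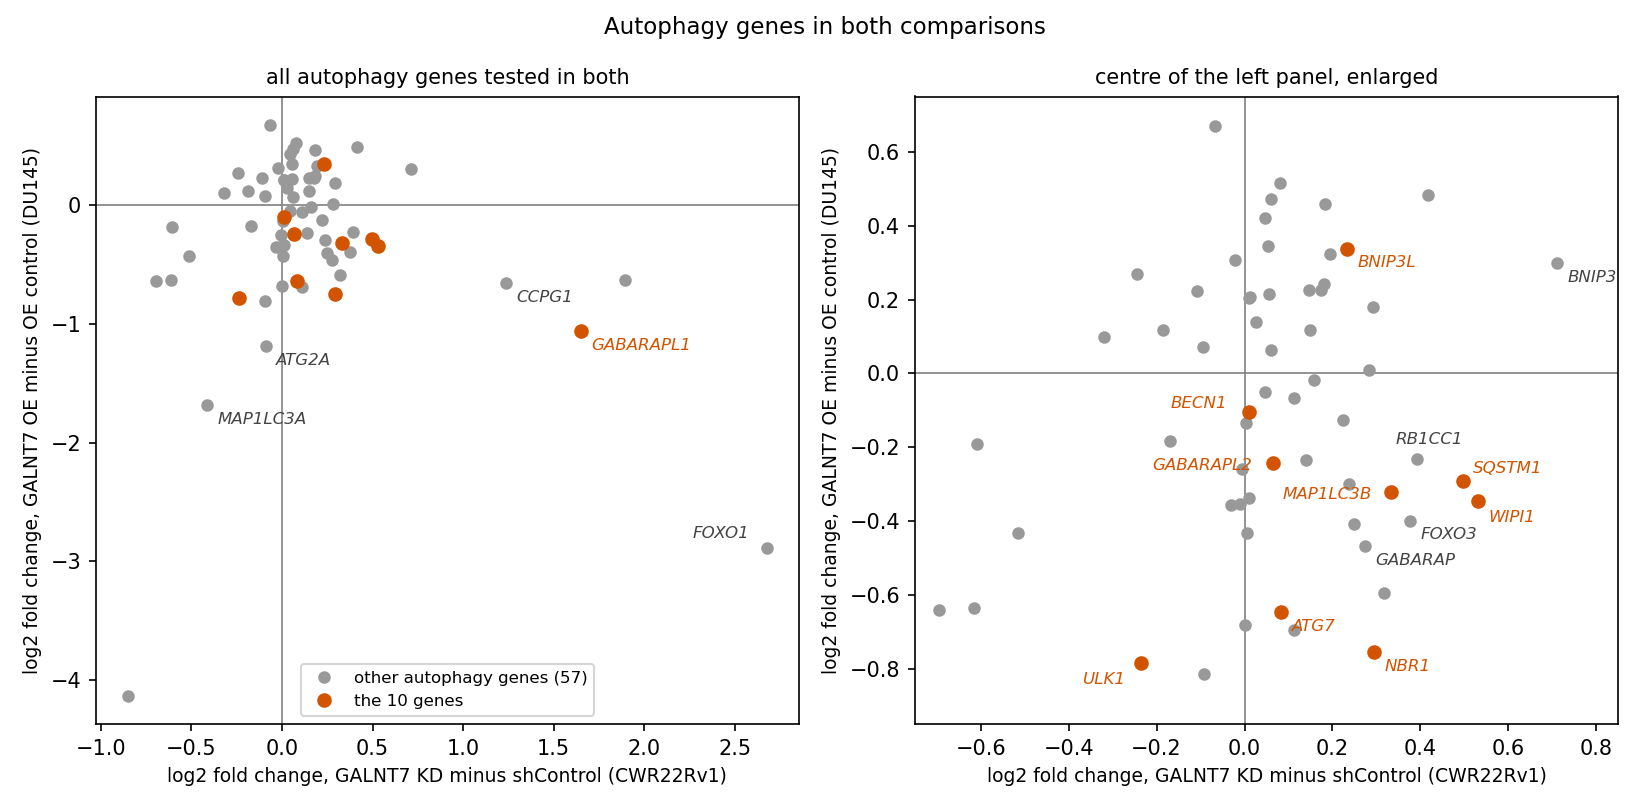
Log2 fold change with knockdown in CWR22Rv1 cells (x axis) against that with overexpression in DU145 cells (y axis) for the 10 genes (orange) and the 57 other autophagy genes tested in both (grey), with the centre enlarged on the right. FOXO1 (2.68 and -2.89), GABARAPL1 (1.65 and -1.06) and CCPG1 (1.24 and -0.66) lie far out in the lower right, and BNIP3 and BNIP3L lie in the upper right.

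Levels of the 10 genes were ordered within each group by normalised reads per kb of the longest coding transcript of each gene. This is a rough correction for length. Which transcripts the cells use was not determined, so the order holds for this choice of length. In shControl cells GABARAPL2 was the highest at 1657 ± 55.9 per kb, followed by NBR1 (787 ± 11.6), SQSTM1 (709 ± 22.5), BECN1 (560 ± 13.0), BNIP3L (520 ± 56.2) and MAP1LC3B (389 ± 10.7), and ULK1, WIPI1, ATG7 and GABARAPL1 came last, at 301 ± 22.9, 191 ± 19.5, 118 ± 10.8 and 65.2 ± 8.07 (all SD, n = 3). BECN1 and BNIP3L were the only neighbours whose ranges over the 3 libraries overlapped. With knockdown, GABARAPL1 moved from place 10 to place 9 at 210 ± 63.7 per kb, with a range that overlapped that of ULK1 (260 ± 66.2), which in turn overlapped that of WIPI1 (287 ± 104). SQSTM1 and NBR1, at 1004 ± 111 and 966 ± 37.9, also overlapped.

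In OE control cells of the DU145 line the order was led by SQSTM1 at 4029 ± 147 per kb, followed by NBR1 (1905 ± 130), GABARAPL2 (1550 ± 54.7), BNIP3L (1520 ± 78.2), MAP1LC3B (1110 ± 19.0), BECN1 (1014 ± 71.9) and GABARAPL1 (618 ± 19.6, all SD, n = 3). ULK1, ATG7 and WIPI1 came last, at 359 ± 111, 165 ± 12.2 and 136 ± 19.2, and only GABARAPL2 and BNIP3L overlapped as neighbours. With overexpression, NBR1 went from place 2 to place 4 at 1127 ± 35.5, BNIP3L from place 4 to place 2 at 1920 ± 51.5, and GABARAPL1 kept place 7 at 296 ± 14.1. The receptor genes SQSTM1 and BNIP3L and the tag GABARAPL2 thus headed the list in overexpressing cells (3296 ± 299, 1920 ± 51.5 and 1311 ± 97.0).

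**Figure D5:**
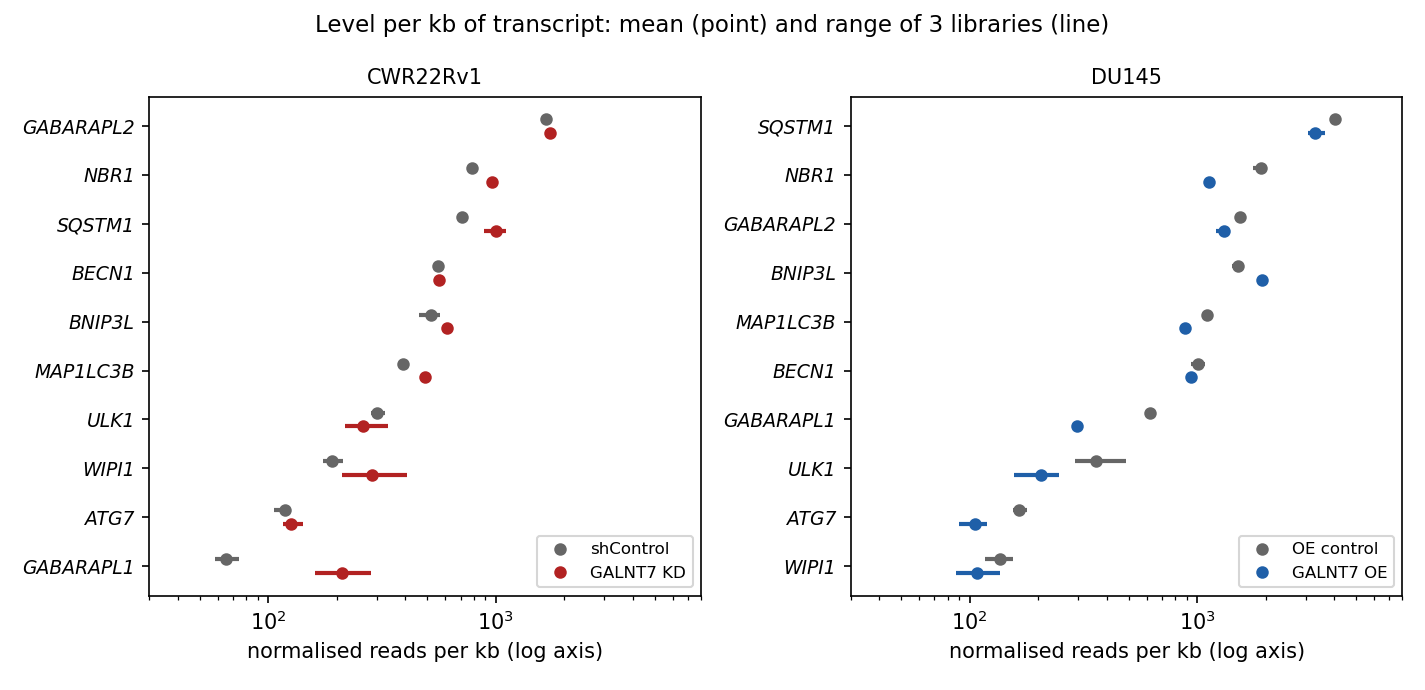
Normalised reads per kb of transcript (x axis, log scale) of the 10 genes in each group, as the mean (point) and the range of 3 libraries (line), CWR22Rv1 on the left and DU145 on the right, ordered by the control group. GABARAPL1 stands at 65.2 in shControl and 210 in GALNT7 KD, and NBR1 at 1905 in OE control and 1127 in GALNT7 OE.

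For the 4 genes that passed in both comparisons, the genes nearest in pattern were found by Euclidean distance over the 12 libraries, on log2 values with the mean of the control group of the line subtracted, among 11816 genes with a mean of at least 50 in both tables. The nearest to GABARAPL1 were CD24, LHFPL6 and SCARA5 (distances 0.788, 0.861 and 0.933). Those to NBR1 were PLOD1, CD46 and B4GALT5 (0.237, 0.252 and 0.266), those to MAP1LC3B were MTCH1, CORO2A and MAP3K1 (0.156, 0.206 and 0.206), and those to SQSTM1 were SIPA1, TMEM102 and DUSP1 (0.208, 0.230 and 0.252). None of the 12 is an autophagy gene of the list. The distance does not use the calls, and not all 12 passed in both comparisons. CORO2A, MAP3K1, SIPA1 and B4GALT5 did not pass with knockdown (limma adjusted p = 0.0865, 0.0553, 0.0649 and 0.0648). TMEM102 passed neither with knockdown nor with overexpression (limma adjusted p = 0.0653 and 0.0915), and the others passed in both. The distances were largest for GABARAPL1, whose changes were the largest of the 4.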

How the data were processed

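RNA was extracted with the RNeasy kit and libraries were made with the TruSeq stranded mRNA kit. The submitters' processing notes name FastQC, Salmon, DESeq2, R 3.5.3 and hg38, and the annotation release is not given in the sources used here. The authors deposited normalised counts as a signal for 59424 Ensembl genes in 1 table per cell line, each value being reads divided by 1 size factor per library. Dividing by the value of 1 read gave whole numbers, called recovered reads here, for 100% of values (tolerance 0.01). Replicates differed by more than sampling noise (mean chi-square per gene 8.77 to 23.7).

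Each cell line was fitted by itself with limma 3.58.1 in R 4.3.3 (lmFit, eBayes with trend) on log2(normalised count + 1). A gene was tested when the 6 libraries had a mean of at least 5, and p-values were adjusted by Benjamini-Hochberg over all such genes, with a threshold of 0.05. The scripts were tested on simulated data. edgeR 4.0.16 and DESeq2 1.42.0 on the recovered reads were alternatives, besides other pseudocounts, filters, scalings, thresholds, eBayes without trend, a replicate block and each library left out. The members, the gene lists and the motifs were chosen with earlier results of these data known. Besides the 10 members, the text names the 5 highest and 5 lowest other autophagy genes past the threshold with a mean of at least 50, relatives of members, and the 3 nearest genes. Other genes of a count of 5 or fewer (GABARAP, CCPG1, VAMP8, FOXO3) are named whether or not they meet that rule, and so are ATG9B and the more abundant genes that overlap a member, chosen after their values were seen. Symbols and positions come from GENCODE release 29 (GRCh38), which held 94.4% of the identifiers and all 10 members, and promoters from the RefSeq table of GRCh38.p14, in which 9 of the 10 members were matched by symbol. The values of 1 marker gene are not reported here.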

Additional observations from a re-analysis of the deposited data

How the results depend on the processing

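The members past the threshold numbered 4 with knockdown and 8 with overexpression, and 17 alternatives were run for each. With knockdown, the count was 1 by eBayes without trend and 1 at a threshold of 0.01, and 1 to 5 with a library left out, where a group of 2 has fewer samples. GABARAPL1 was called in all 17 alternatives, and 4 members were called by edgeR and by DESeq2. The other autophagy genes past the threshold were 7, against 3 without trend, 12 by DESeq2, 2 at 0.01 and 3 to 10 with a library left out. All genes past it were 1623, against 1002 with the replicate block, 996 without trend, 2666 by DESeq2, 392 at 0.01 and 539 to 1336 with a library left out, with the lowest without GALNT7 KD library 1. With overexpression, a threshold of 0.01 left 5 of 8 members, 19 of 30 other autophagy genes and 5303 of 8132 genes, and leaving out a library gave 6 to 8 members. Without trend 6 members passed, and ULK1 and GABARAPL2 did not (limma adjusted p = 0.0736 and 0.063). Scaling to the 75th percentile moved the median log2 fold change of all genes from -0.011 to -0.11, and 8 members passed. The direction turned with knockdown for ULK1 (log2 fold change -0.24), and for BECN1 and ATG7, which were near 0 (0.011 and 0.083). ULK1 was 0.041 with the median of its chromosome 12 (-0.28) subtracted. BECN1 was -0.011 with scaling to the 75th percentile, -0.0038 with quantile normalisation and -0.0057 to 0.036 with a library left out, and ATG7 was -0.011 to 0.14 with a library left out. The causes were not tested.

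Replicate numbers are shared between groups, but same-numbered libraries did not deviate together enough to pair them (correlations 0.000626, 0.131 and 0.0241 with knockdown, 0.0406, 0.0410 and 0.0318 with overexpression). With the replicate block, 3 members passed with knockdown and 8 with overexpression, and 8 and 29 of the other autophagy genes. In DU145 cells every treated library correlated best with its own number, and in CWR22Rv1 cells libraries 1 and 3 did not.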
